A study of Mus musculus with 2 samples.

Results

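Natural CD8 alpha-alpha T cells of the gut epithelium carry an alpha-beta T cell receptor and a CD8 co-receptor made of 2 alpha chains. They were looked for here by their transcripts, as barcodes with at least 1 UMI of Cd8a, at least 1 of Trac and at least 1 of Tyrobp or Fcer1g, and no UMI of Cd8b1, Cd4, Trdc or Mki67. A UMI (unique molecular identifier) marks 1 captured transcript. Among the barcodes with at least 500 UMIs, at least 300 genes, at most 10% mitochondrial UMIs and at most 2 UMIs of the pseudogene Rps19-ps6, 743 of 4965 in the SAP library and 883 of 5634 in the Control library met this gate, 1626 of 10599 in all.

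The study made 2 droplet libraries of mouse ileum T cells, 1 labelled SAP and 1 labelled Control, with the 10x Genomics 3' kit of version 3. Its design describes dendritic cells exposed beforehand to phages of SAP mice or of healthy mice, gut T cells of germ-free mice, and FucoID, an enzymatic tagging of T cells that touch a dendritic cell. The labels give no age, strain or number of animals, and say neither how the Control library was made nor whether tagged or all T cells were sequenced. With 1 library per group no difference between SAP and Control has a replicate check, no test was possible, and every interval below covers counting error only.

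Natural CD8 alpha-alpha cells arise in the thymus from precursors that meet self ligands, lose CD4 and CD8 beta, and settle between epithelial cells, where they persist and hold granzymes. They are known for low levels of surface molecules of conventional T cells and for receptors shared with natural killer (NK) cells. Many of those receptors have no signalling tail of their own and work through the adaptors FcR gamma, encoded by Fcer1g, and DAP12, encoded by Tyrobp. The Ly49 receptors, encoded by the Klra genes, are lectin-like proteins of the NK gene complex that bind MHC class I molecules. Inhibitory Ly49 receptors carry their own inhibitory motif, whereas activating ones pair with DAP12.

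The highest ratios between gate cells and the other kept barcodes belonged to the Ly49 genes Klra7, Klra6 and Klra5. Their upstream sequences are shown because a single stretch of 24 bases, in capitals, occurs unbroken in all 3. It was found as the longest stretch these 3 genes share, with the annotated starts chosen to make it longest. Each line gives the 250 bases before the annotated gene start on the minus strand of GRCm38.p6, from RefSeq, written 5′ to 3′.
Klra7: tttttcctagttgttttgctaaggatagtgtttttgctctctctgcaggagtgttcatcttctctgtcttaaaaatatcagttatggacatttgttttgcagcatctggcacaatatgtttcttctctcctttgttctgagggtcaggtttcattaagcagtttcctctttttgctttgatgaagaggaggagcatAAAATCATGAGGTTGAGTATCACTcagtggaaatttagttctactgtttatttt
Klra6: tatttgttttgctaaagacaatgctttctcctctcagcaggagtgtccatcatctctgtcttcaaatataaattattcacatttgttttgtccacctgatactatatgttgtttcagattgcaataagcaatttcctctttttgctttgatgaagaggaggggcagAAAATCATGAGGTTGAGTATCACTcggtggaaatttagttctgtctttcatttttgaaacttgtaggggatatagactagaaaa
Klra5: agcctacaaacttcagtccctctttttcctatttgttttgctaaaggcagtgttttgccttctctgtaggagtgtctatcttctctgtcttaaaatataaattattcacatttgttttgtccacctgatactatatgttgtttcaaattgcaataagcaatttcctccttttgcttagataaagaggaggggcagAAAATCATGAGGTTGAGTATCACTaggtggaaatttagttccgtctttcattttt
The Klra7 window is chr6:130233323-130233572, the Klra6 window chr6:130026955-130027204 and the Klra5 window chr6:129913225-129913474. On either strand the capital run was found in 3 of 32851 windows (0.00913%) of the promoter table, which holds 11 Klra genes. Only exact copies were counted and the run was picked from these 3 genes, so its absence elsewhere is largely set by that choice. Counted back from the gene start, it lies at −54 to −31 in Klra7, −84 to −61 in Klra6 and −55 to −32 in Klra5. Over the aligned 250 bases Klra5 was 73.1% identical to Klra6 and 70.3% to Klra7, and Klra6 was 67.5% identical to Klra7. A shared run is a description of related sequence and says nothing of a bound factor.

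Ly49 genes are close copies of each other, so reads can be shared among them. In the last 500 bases of the transcripts in GENCODE M21, where 3' libraries are read, the longest stretch that Klra5 shared with Klra6 was 35 bases. It was 29 bases between Klra5 and Klra7 and 21 between Klra6 and Klra7. Values of single Ly49 genes are therefore uncertain where the counting could split such reads.

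The gate cells held 3108563 UMIs in SAP and 3328557 in Control, and the median cell had 4009 UMIs in SAP and 3642 in Control. The other kept barcodes had medians of 3311 and 3026. Median mitochondrial shares were 1.32% and 1.05% in gate cells and 1.55% and 1.23% in the others. The libraries shared 6 barcode sequences, 5 of them kept in both and 1 in the gate of either. The rule on Rps19-ps6 removed 63 SAP and 31 Control barcodes, whose median depth was 27563 and 5592 UMIs. Levels are given below as CPM, UMIs per 1000000 summed UMIs of a cell group, which for a 3' library needs no correction for length.

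The gate took 14.96% of kept SAP barcodes (14.0 to 16.0%, exact Clopper-Pearson 95% interval) and 15.7% of kept Control barcodes (14.7 to 16.6%). The ratio of the shares, SAP over Control, was 0.955 (0.865 to 1.05). With every barcode thinned to 1000 UMIs, which leaves out 495 SAP and 501 Control barcodes, the gate took 364 of 4470 SAP barcodes (8.14%) and 375 of 5133 Control barcodes (7.31%), a ratio of 1.12 (0.962 to 1.29). The share and the side of 1 on which the ratio falls therefore move with depth. Thinned, 64.9% of SAP and 61.2% of Control gate cells kept a Cd8a UMI, and 61.3% and 60.2% kept a Trac UMI.

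Cells just outside the gate show how much each criterion decides. The largest loss came from Trdc, the constant region of the T cell receptor delta chain: 781 SAP and 821 Control barcodes failed on it alone, of which 96 and 129 had exactly 1 Trdc UMI. The adaptor criterion alone turned away 200 and 261 barcodes. Cd8b1, the CD8 beta chain, alone turned away 38 and 42, of which 23 and 21 had exactly 1 UMI. Just inside, 121 of 743 SAP cells (16.3%) and 191 of 883 Control cells (21.6%) had exactly 1 Cd8a UMI, and 142 (19.1%) and 199 (22.5%) had exactly 1 Trac UMI. Only 32 (4.31%) and 50 (5.66%) rested on a single adaptor UMI. Both adaptors were found in 584 SAP cells (78.6%) and 707 Control cells (80.1%), Fcer1g without Tyrobp in 140 and 151, and Tyrobp without Fcer1g in 19 and 25.

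The label was set against markers the gate did not use. Klra5, the remaining marker of the label, had a UMI in 17.8% of SAP and 18.7% of Control gate cells, against 3.72% and 4.27% of the other kept barcodes. At 1000 UMIs per barcode the shares were 10.1% and 10.9% of gate cells and 2.06% and 2.39% of the others. The thinned share was 2.59% in SAP and 3.09% in Control kept barcodes with a Trdc UMI and no Cd8b1, Cd4 or Mki67 UMI. It was 0 and 0.39% in the Cd4 cells (kept barcodes with a Cd4 UMI, median depth 3542 and 3434 UMIs), which should lack the gene. In the barcodes removed for Rps19-ps6 it was 0 and 4.17%, the latter from 1 of 24 barcodes. Asking also for a UMI of the beta chain genes Trbc1 or Trbc2 left the gate at 14.4% of SAP and 15.2% of Control barcodes. Beta chain UMIs were also common in Trdc cells (kept barcodes with a UMI of the delta constant region): Trbc2 was found in 90.9% and 91.4% of gate cells and in 82.2% and 82.4% of Trdc cells, and Trbc1 in 58.6% and 53.9% of gate cells and in 61.2% and 60.7% of Trdc cells. A Trac UMI, which every gate cell has by the rule, was found in 51.5% and 51.5% of Trdc cells, so alpha and beta chain UMIs alone do not separate the gate from gamma-delta cells.

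Some markers of other cell types were at or near 0 UMIs in the gate, and others were not. The NK cell genes Ncr1 and Eomes had 2 and 1 UMIs in SAP gate cells and 2 and 0 in Control gate cells. Sox13, of innate-like gamma-delta cells, had 0, as did the myeloid gene Lyz2, the mast cell gene Ms4a2 and the B cell gene Ms4a1. Klrb1c, the NK1.1 gene, had 40 SAP and 43 Control UMIs and the immunoglobulin gene Igha 121 and 142, while the epithelial gene Epcam had a UMI in 35.5% and 30.01% of gate cells, against 15.3% and 15.4% of the others. Summed over each marker list, the gate held 192 and 212 CPM of 12 NK and innate lymphoid genes, against 276 and 275 CPM in the others, and 129 and 121 CPM of 12 epithelial genes, mostly Epcam, against 109 and 79.8 CPM. The 15 myeloid, dendritic and mast cell genes summed to 236 and 259 CPM against 189.8 and 204 CPM, and the 9 B and plasma cell genes to 154 and 147 CPM against 97.7 and 1373 CPM. Only 2 of those 15 genes had enough counts for a ratio. Of these, 1 was at least 1.5-fold higher in the gate in both libraries and 0 were lower. In SAP and Control gate cells 5 and 5 of the NK list, 5 and 6 of the epithelial, 6 and 8 of the myeloid and 4 and 3 of the B cell list were at 0 UMIs, and the part of such cells or of free RNA in the values below was not tested. Of delta variable segments the gate held 10 UMIs in 7 SAP cells and 24 UMIs in 20 Control cells, while the kept barcodes with a Trdc UMI held 460 and 464 in 344 and 364 cells. The gamma constant region Trgc1 stood at 208 and 210.3 CPM in the gate, against 665 and 632 CPM in those Trdc cells, so gate cells also carried gamma chain transcripts.

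The comparison of gate cells with all other kept barcodes asks which transcripts go with the gate. Its members were chosen by genes measured in the same cells, so the values are a description and nothing is read from the counts. A gene was counted with at least 20 CPM in gate cells or in the others and 50 UMIs over both, in each library. It could thus enter through 1 cell group alone, as Fcgr3, Gcnt1, Sh2d1a and Il17a did below. The filter therefore also shapes the counts and medians of the gene lists. Of 5395 such genes, 29 (0.538%) were at least 2-fold higher in the gate in both libraries and 50 (0.927%) at least 2-fold lower. At 1.5-fold the counts were 126 (2.34%) and 91 (1.69%), which is the background for the gene lists. The median log2 ratio over all these genes was 0.04.

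Receptors of the NK gene complex led the higher genes. Klra7, which encodes the inhibitory receptor Ly49G, had 117 CPM in gate cells and 15.3 CPM in the others of the SAP library, and 94.3 and 11.9 CPM in the Control library, ratios of 7.65 (6.46 to 9.09) and 7.95 (6.60 to 9.60). Klra6, for Ly49F, had 70.5 and 10.2 CPM in SAP and 60.1 and 8.64 CPM in Control, ratios of 6.91 and 6.96. Klra5, for the inhibitory receptor Ly49E, reached the highest level of the family, 169 CPM in SAP gate cells against 37.7 in the others, and 175 against 37.6 CPM in Control, ratios of 4.48 (3.96 to 5.05) and 4.64 (4.13 to 5.22). All 3 were higher in the gate of either library, by amounts whose intervals overlap between the libraries.

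Klra5, Klra6 and Klra7 were the 3 of 13 listed Ly49 genes with enough counts, and their median log2 ratio was 2.79. Klra6 and Klra7 reached 20 CPM in the gate only, so the filter itself shapes that median. Klra1, for Ly49A, fell short of the minimum with 58 and 91 UMIs in the gate, or 18.7 and 27.3 CPM against 5.62 and 3.56 CPM in the others. In GRCm38.p6 coordinates Klra5 is annotated at chr6:129898988-129913237, Klra6 at chr6:130013033-130026960 and Klra7 at chr6:130218605-130233322. They are protein-coding genes of the same cluster.

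Ly49 transcripts were found in a minority of gate cells and unevenly among them. Any Ly49 gene had a UMI in 276 SAP gate cells (37.1%) and 302 Control gate cells (34.2%), and at least 2 Ly49 genes in 71 (9.56%) and 77 (8.72%). At 1000 UMIs per cell any Ly49 gene was found in 20.2% (17.3 to 23.3%) of SAP and 20.7% (18.0 to 23.5%) of Control gate cells, in 4.57% and 4.73% of the other kept barcodes and in 4.88% and 5.41% of Trdc cells. Among SAP gate cells Klra7 was found in 26 of the 109 cells with Klra6 (23.9%) and in 7.73% of those without it, and among Control gate cells in 36 of 107 (33.6%) and 5.16%. Klra7 was also found in 18.2% of SAP and 18.2% of Control gate cells with Klra5, and in 8.35% and 6.41% of those without. For Klra5 and Klra6 the shares lay closer: Klra6 was found in 12.1% of SAP and 13.3% of Control gate cells with Klra5, and in 15.2% and 11.8% of those without. These pair shares were taken without thinning. Reads shared by related genes and differences in depth between cells could add to such pairing, and their part in it was not tested.

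Other lectin-like receptors of the complex were also higher. Klre1, whose product pairs with KLRI1 or KLRI2, had 213 CPM in gate cells and 54.2 in the others of SAP, and 216 and 55.7 CPM in Control, ratios of 3.93 and 3.88. Klrh1, a further lectin-like gene of the cluster, had 281 against 81.4 CPM and 279.7 against 93.2 CPM. Klrb1a, for the activating receptor NKR-P1A, had 116 against 34.5 CPM and 91.6 against 30.6 CPM. Klrd1, for CD94, the partner of the NKG2 receptors, had 1368 against 728 CPM in SAP and 1188 against 759.9 CPM in Control. In the list of CD94, NKG2 and NKRP1 genes 3 of 5 counted members were at least 1.5-fold higher and 1 lower, with a median log2 ratio of 0.78. The lower member was Clec2i, a ligand-type lectin, at ratios of 0.473 and 0.490. Of the 15 highest genes, 6 were Klr genes within 1624.1 kb of chromosome 6, from Klrb1a to Klra7 (chr6:128609227-130233322).

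**Figure D1:**
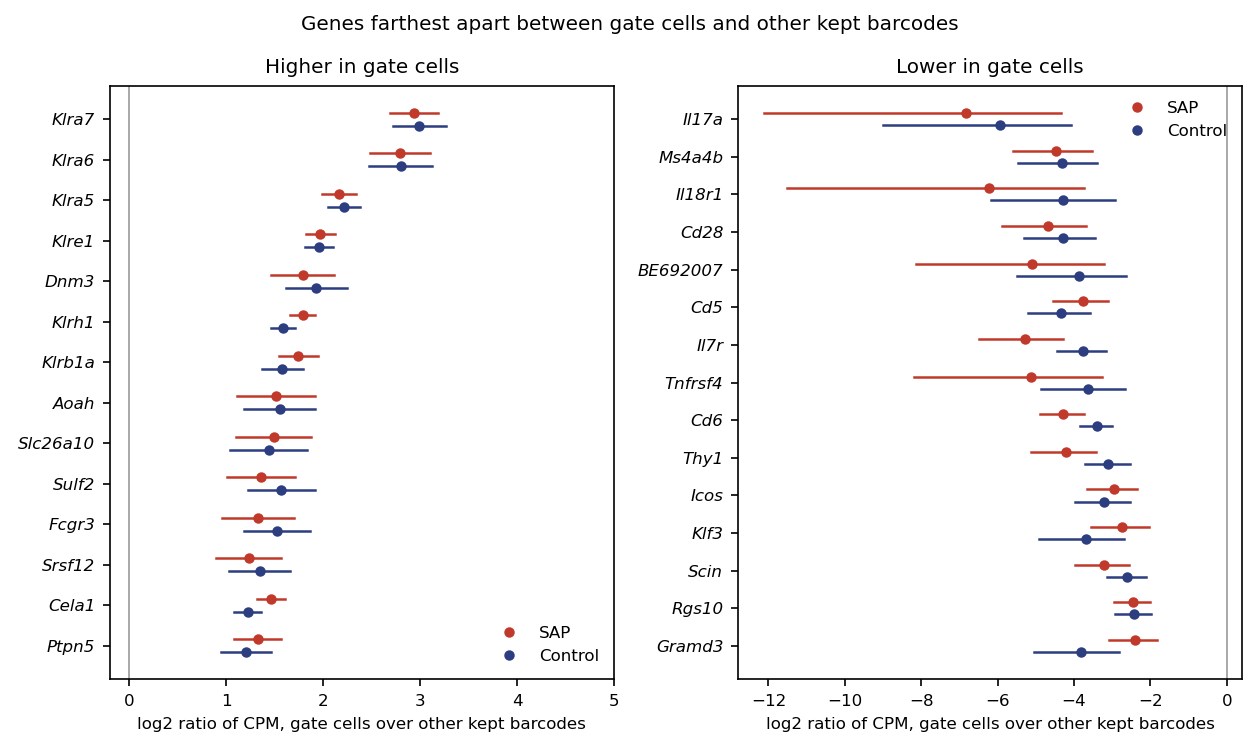
Log2 ratio of CPM, gate cells over other kept barcodes, for 14 of the 15 highest genes (left) and the 15 lowest genes (right), with 1 point per library (SAP red, Control blue) and lines for exact 95% counting intervals. The 3 Ly49 genes head the left panel, Klra7 with ratios of 7.65 in SAP and 7.95 in Control, and Il17a heads the right panel with 1 SAP and 2 Control UMIs in the gate.

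Signalling genes that couple NK-type receptors were partly higher as well. The adaptors themselves were part of the gate and stood at 1262 CPM for Tyrobp and 1959 CPM for Fcer1g in SAP gate cells, and at 1313 and 2060.4 CPM in Control gate cells. Fcgr3, for the IgG receptor CD16 that signals through FcR gamma, had 30.2 against 12 CPM in SAP and 35.1 against 12.2 CPM in Control. Sh2d1b1, for the adaptor EAT-2 of SLAM-family receptors, had ratios of 2.004 and 2.02, the kinase gene Lyn 1.87 and 1.72, Lat2, for a scaffold of Fc receptor signalling, 1.75 and 1.68, and Clnk 1.61 and 1.80. Sh2d1a, for the related adaptor SAP of conventional T cells and unconnected with the library's name, was lower, with 10.6 against 30.7 CPM and 11.4 against 32.5 CPM. Of 14 counted members 5 were at least 1.5-fold higher and 1 lower, and the median log2 ratio was 0.50. Syk had 0 UMIs in the gate of either library, and Hcst, for DAP10, had ratios of 0.874 and 0.863.

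The T cell receptor side was unequal. The beta constant regions Trbc1 and Trbc2 were higher, at ratios of 1.42 and 1.29 for Trbc1 and 1.28 and 1.24 for Trbc2, while Cd3g, a CD3 chain, stood at 1.29 and 1.30. Cd247, for the CD3 zeta chain, was lower, with 45.7 CPM in gate cells against 111 in the others of SAP and 51.7 against 101 CPM in Control. Lat, for the scaffold that links the receptor to its downstream pathways, had 107 against 253 CPM and 106 against 238 CPM. Lat and Cd247 were the 2 of 14 counted receptor-proximal genes at least 1.5-fold lower, and 0 were higher.

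Surface molecules and related genes of conventional T cells were low in the gate. Of 11 counted genes 10 were at least 1.5-fold lower in both libraries, with a median log2 ratio of −3.09, and the exception was Cd27 at 1.07 and 1.14. Cd5, Cd6, Cd28, Thy1 and Il7r reached 20 CPM only in the others, so the filter itself shapes this count and median. Cd5, a restrainer of receptor signals, had 5.79 CPM in SAP gate cells against 79.3 in the others and 4.21 against 84.4 CPM in Control. Cd6, its relative, had 8.69 against 169 CPM and 15.6 against 166 CPM, a ratio of 0.0515 in SAP and 0.0941 in Control. The co-stimulatory receptor gene Cd28 had 2.57 against 65.4 CPM and 3.31 against 64.7 CPM, and Icos had ratios of 0.128 and 0.108. Thy1, which many gut epithelial T cells lack, had 4.18 against 77.3 CPM and 7.81 against 66.8 CPM. The interleukin-7 receptor gene Il7r, with 8 UMIs in SAP and 22 in Control gate cells, stood at 2.57 against 99.6 CPM and 6.61 against 89.4 CPM.

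Further genes among the 15 lowest encode effector molecules and receptors. Il17a, the cytokine of type 17 cells, had 1 UMI in SAP gate cells and 2 in Control gate cells, a ratio to the others of 0.00883 (0.000223 to 0.0494) and 0.0163 (0.00197 to 0.0591). This low level was not particular to the gate. Il17a was found in 0.13% of SAP and 0.23% of Control gate cells. In Trdc cells the shares were 0.29% and 0.09%, and in Cd4 cells 4.9% and 4.1%. Il18r1, an interleukin-18 receptor chain, had 1 and 4 UMIs, Tnfrsf4, for OX40, 2 and 8, and BE692007 2 and 5. Ms4a4b, whose close relatives could share reads, had 2.90 against 64.1 CPM and 2.70 against 54.1 CPM. Scin, for an actin-severing protein, had ratios of 0.107 and 0.165, and Rgs10, for a regulator of G protein signals, 0.181 and 0.185. Klf3, a transcription factor gene, and Gramd3 complete the 15, at 0.150 and 0.0776 for Klf3 and 0.188 and 0.0711 for Gramd3.

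Other genes among the 15 highest have no common role. Dnm3, for the membrane-cutting GTPase dynamin 3, had 44.4 against 12.8 CPM in SAP and 46.3 against 12.1 CPM in Control. Aoah, for an enzyme that inactivates bacterial lipopolysaccharide, had ratios of 2.86 and 2.94, and Sulf2, for a heparan sulphate sulphatase, 2.57 and 2.97. Cela1, for an elastase, had 203 against 73.7 CPM and 186 against 79.8 CPM. Ptpn5, a tyrosine phosphatase gene, stood at 2.51 and 2.31, Slc26a10, of an anion transporter family, at 2.81 and 2.72, and the splicing factor gene Srsf12 at 2.35 and 2.55.

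The 17 listed granule genes together took 42744 CPM in SAP and 42725 CPM in Control gate cells, against 27499 and 28581 CPM in the others. Gzma, for granzyme A, took 32238 CPM in SAP and 32403 CPM in Control gate cells, against 18681 and 19577 CPM in the others, ratios of 1.73 and 1.66, and was the 1 of 14 counted granule genes at least 1.5-fold higher. Per cell its median was 309.8 UMIs per 10000 in SAP and 307.8 in Control, with the middle 80% of cells between 101.9 and 502.9 in SAP and 109.4 and 528.0 in Control. Gzmb, for granzyme B, had 4936 against 3897 CPM and 4968 against 4025 CPM. Gzmk was the lower one, with 40.5 against 76.3 CPM and 38.1 against 71.4 CPM. Granzyme genes are related copies, so reads between them are uncertain. Nkg7, a granule membrane gene, had ratios of 1.41 and 1.31, and Prf1, for perforin, 1.13 and 1.004.

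Secreted signals were mixed. Ccl5, a T cell chemokine, was the most abundant of them at 39634 CPM in SAP and 44671 CPM in Control gate cells, ratios of 1.27 and 1.31. Ifng had 89.8 against 197 CPM and 117 against 204 CPM, Tnf ratios of 0.390 and 0.383, the chemokine gene Ccl4 0.640 and 0.662, and Ltb, for lymphotoxin beta, 0.574 and 0.493. With Il17a these were the 5 of 12 counted cytokine and chemokine genes at least 1.5-fold lower, and 0 were higher. Xcl1, a chemokine for cross-presenting dendritic cells, stood at 0.946 and 0.964.

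The list of genes known for natural intraepithelial lymphocytes shares its Ly49, granule and adaptor members with the lists above and so adds no separate evidence. Of its 25 counted members 8 were at least 1.5-fold higher and 1 lower, and the median log2 ratio was 0.30. Cd7, an immunoglobulin-family surface gene of gut T and NK cells, had 2975 against 1614 CPM in SAP and 2939.7 against 1626 CPM in Control. Il2rb, for the interleukin-2 and interleukin-15 receptor beta chain, had 708 against 428 CPM and 736 against 463 CPM. Cd244a, for the SLAM-family receptor 2B4, had ratios of 1.49 and 1.40, and Itgae, for the integrin CD103 that binds epithelial E-cadherin, 1.19 and 1.25. The lower member was the chemokine gene Ccl4. Nr4a1, an early target of receptor signals, stood at 0.672 and 0.645, 1 library on either side of the 1.5-fold mark.

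Receptors and regulators that hold T cells in check were higher in part. Lag3, an inhibitory receptor for MHC class II, had 249.6 against 129 CPM and 265 against 135 CPM. Entpd1, for the ATP-degrading enzyme CD39, had ratios of 1.89 and 1.84 and the inhibitory receptor gene Cd200r1 1.85 and 1.85, which makes 3 of 7 counted genes higher. Ctla4 was the lower one, at 0.433 and 0.446, and Pdcd1 had 2 SAP and 3 Control UMIs. Irf8 was the 1 of 20 counted transcription factor genes at least 1.5-fold higher, with 71.7 against 32.6 CPM and 60.7 against 30.8 CPM, while Rora, Tcf7, Bcl11b and Zeb2 were the 4 lower ones. Tcf7, of immature and memory-like T cells, had 17.1 against 68.04 CPM and 24.03 against 73.6 CPM, and Rora, of type 17 and innate-like cells, 53.1 against 177 CPM and 54.98 against 179.6 CPM. Ikzf2, for Helios, a factor seen after self-ligand selection, had ratios of 1.48 and 1.56. Bcl2, for a protein that blocks cell death, was the 1 of 11 survival genes higher, at 1.66 and 1.56, and Spry2 and Tnfrsf9 were the 2 of 12 listed receptor-signal targets higher, at 1.80 and 1.92 for Spry2 and 2.03 and 1.60 for Tnfrsf9.

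Homing genes were mostly close to the other cells. Of 17 counted members 1 was higher, Epcam, an epithelial adhesion gene, with 124 against 67.2 CPM and 115 against 65.1 CPM. Beside it, the epithelial genes Vil1, Fabp6 and Alpi had 0 UMIs and Krt8 had 1 SAP and 0 Control UMIs in the gate. The 3 lower ones included S1pr4, at 0.632 and 0.619, and Itgal, an integrin chain of blood-borne T cells, at 0.218 and 0.166. Ccr9, the small-intestine homing receptor gene, stood at 0.624 and 0.706. In the lists for MHC class I, cholesterol synthesis and mitochondrially encoded genes 0 members were 1.5-fold apart in both libraries. Of 6 counted fucosylation genes 1 was higher, Gcnt1, for an enzyme that branches O-glycans, with 37.96 against 18.03 CPM and 37.5 against 17.1 CPM.

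Cytokine receptor genes had 1 of 13 higher, Il2rb, and 3 lower: Il7r, Il18r1 and Il12rb2, the interleukin-12 receptor chain gene, at 0.561 and 0.569. The lists of NF-kB targets (15 counted), interferon-induced genes (14), cell cycle genes (6) and immediate early or stress genes (17) had 0 members higher and 1 each lower. Those were Traf1, for a signalling adaptor of tumour necrosis factor receptors, at 0.640 and 0.627, Ifi27l2a at 0.479 and 0.351, Stmn1, a tubulin regulator of dividing cells, at 0.378 and 0.369, and the heat shock gene Hspa1a at 0.601 and 0.613. Of 4 counted gamma-delta receptor chain genes Trgc1 was lower and 0 were 1.5-fold higher, but the list's median log2 ratio was 0.33. The gamma segment Trgv2 had 147 CPM in gate cells against 122.8 in the others of SAP, and 137.6 against 112.1 CPM in Control. In Trdc cells Trgv2 had 138.3 CPM in SAP and 130.4 in Control. Of 2 counted genes of the gamma-delta type 17 program both, Il17a and Maf, were lower.

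**Figure D2:**
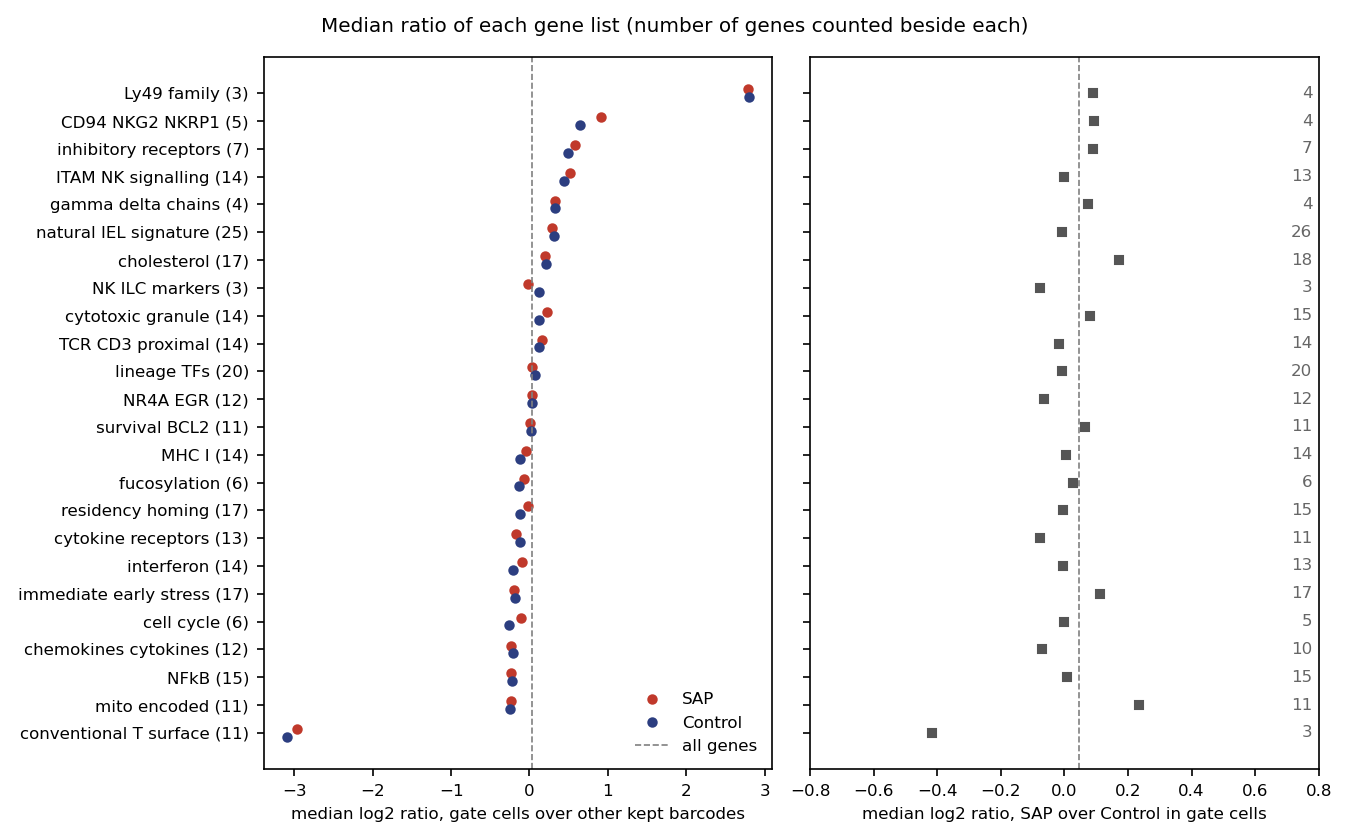
Median log2 ratio of each gene list, gate cells over other kept barcodes by library on the left (SAP red, Control blue) and SAP over Control in gate cells on the right (grey squares), with the number of genes counted beside each list and a dashed line at the median of all counted genes. On the left the Ly49 list lies highest at 2.79 and the conventional T cell surface list lowest at −3.09, while on the right the lists lie near the line, apart from the conventional list, of which 3 genes were counted. Several lists, among them the Ly49 and conventional lists, hold genes that reached the CPM minimum in 1 cell group only.

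Gate cells were then set against the kept barcodes most like them: Trdc cells (Trdc found, no Cd8b1, Cd4 or Mki67, 2082 in SAP and 2308 in Control), Cd8b1 cells (Cd8a, Trac and Cd8b1 found, no Trdc, Cd4 or Mki67, 329 and 298) and adaptor-zero cells (as the gate but with no Tyrobp or Fcer1g UMI, 200 and 261). Median depths were 3641 and 3348, 3787 and 3533.5, and 2958 and 2911 UMIs, against 4009 and 3642 in the gate. Their rules use the same genes as the gate, so these values too are a description. Against Trdc cells 29 of 5404 genes (0.537%) were at least 2-fold apart in both libraries. Against Cd8b1 cells 259 of 5400 (4.8%) were, and against adaptor-zero cells 292 of 5379 (5.43%), so by this count gate cells lay nearest the Trdc cells. Among genes with at least 100 CPM the counts were 7 of 1472 (0.476%), 77 of 1493 (5.16%) and 89 of 1514 (5.88%), in the same order, although the compared groups differ in size.

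The Ly49 genes Klra7 and Klra6 had the highest ratios of gate cells over Trdc cells. Klra7 had 117 CPM in the gate and 6.91 CPM in Trdc cells of SAP, and 94.3 and 7.77 CPM in Control, ratios of 16.9 and 12.1. Klra6 followed with ratios of 9.83 and 10.7, Klra5 with 3.39 and 3.71, and Klre1 with 3.29 and 3.05. Klra5 had 49.8 and 47.01 CPM in Trdc cells, so Klra5 was ahead of Klra6 and Klra7 there by a larger ratio than in the gate, though by fewer CPM. Among lower genes, Scin, for an actin-severing protein, had 6.11 against 55.4 CPM and 10.8 against 70.3 CPM, a wider ratio than that of Klra5. Plac8 had 117 against 568 CPM and 132 against 636 CPM, and Themis, a T cell development gene, 14.5 against 67.4 and 13.5 against 53.4 CPM. Surface genes of conventional T cells differed among themselves. Il7r, the interleukin 7 receptor gene, had 2.57 against 32.4 CPM and 6.61 against 29.96 CPM, and Thy1 4.18 against 33.3 and 7.81 against 31.97 CPM. Cd5 was low in both, at 5.79 and 4.21 CPM in the gate and 6.78 and 4.26 CPM in Trdc cells. Cd28 and Icos were rare in both as well. Cd28 was found in 0.81% of SAP and 0.68% of Control gate cells, and in 0.82% and 0.91% of Trdc cells. For Icos the shares were 2.56% and 1.93% of gate cells and 2.21% and 1.39% of Trdc cells. In Cd4 cells Cd28 was found in 48.2% and 44.4% and Icos in 47.4% and 39.85%.

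Against Cd8b1 cells, in which the CD8 beta chain was found, the gate differed in both directions. Itih5, of the inter-alpha-trypsin inhibitor family, had 92.0 CPM in the gate and 4.68 CPM in Cd8b1 cells of SAP, and 89.2 and 4.47 CPM in Control, ratios of 19.7 and 19.97. Klra7 had no UMI in SAP Cd8b1 cells, which makes the gate at least 49.95-fold higher with the floor of 3 counts over that group, and 7 UMIs in Control, a ratio of 15.1. Spry2, a brake on growth factor signalling, had 193 against 16.4 CPM and 206 against 18.8 CPM. Cd6 had 8.69 against 430.2 CPM and 15.6 against 443 CPM, and Cd5 5.79 against 185 and 4.21 against 190.3 CPM. Gzma had 32238 against 14144 CPM and 32403 against 15139 CPM.

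Adaptor-zero cells missed the gate by the adaptors alone, and their levels lay nearer those of Cd8b1 cells for the genes below. They held no Klrh1 UMI, which makes the gate at least 52.8-fold higher in SAP and 71.5-fold higher in Control. Cd5 had 5.79 CPM in the gate against 298 CPM there in SAP, and 4.21 against 242 CPM in Control. For Cd6 the values were 8.69 against 452 and 15.6 against 523 CPM, and for Ifng 89.8 against 298 and 117 against 343 CPM. The order of Gzma levels was gate, Trdc, Cd8b1 and adaptor-zero cells in both libraries, from 32238 CPM down to 9524 CPM in SAP and from 32403 down to 11414 CPM in Control.

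**Figure D3:**
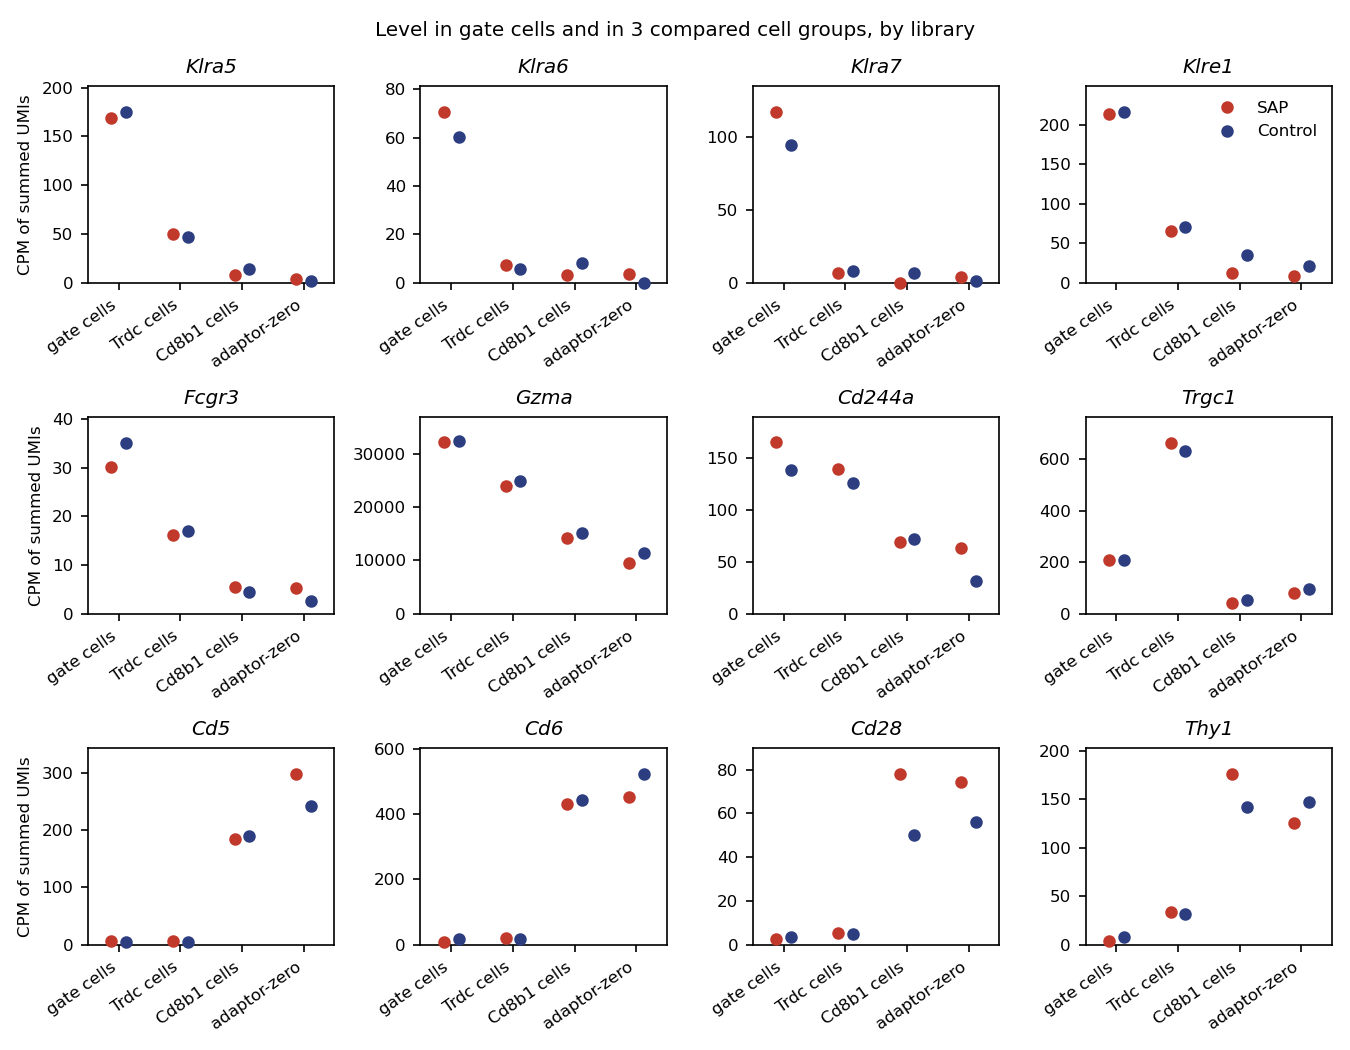
CPM of summed UMIs for 12 genes in gate cells, Trdc cells, Cd8b1 cells and adaptor-zero cells, with 1 point per library (SAP red, Control blue) and each axis starting at 0. Klra5, Klra6, Klra7 and Klre1 are highest in gate cells, Trgc1 in Trdc cells, and Cd5, Cd6, Cd28 and Thy1 are low in gate cells and high in Cd8b1 and adaptor-zero cells.

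Within the gate, cells with a Tyrobp UMI (603 SAP and 732 Control, median depth 4124 and 3697.5 UMIs) were set beside those with Fcer1g only (140 and 151, median 3593 and 3408 UMIs). Of 5422 genes 85 (1.57%) were at least 1.5-fold higher in Tyrobp cells in both libraries and 52 (0.959%) at least 1.5-fold lower. Tcf7 stood farthest apart, with 6.98 CPM in Tyrobp cells against 65.9 in Fcer1g-only cells of SAP and 12.1 against 88.5 CPM in Control. Satb1, a chromatin organiser of young T cells, had 14.4 against 43.3 CPM and 9.26 against 59.6 CPM, Rora 45.0 against 92.3 and 41.7 against 126.9 CPM, and Zeb2 45.0 against 143.1 and 45.6 against 117.3 CPM. Xcl1 had 217.3 against 329.6 CPM and 190.8 against 403.9 CPM.

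Higher in Tyrobp cells were Gzma, with 34789 against 19852 CPM in SAP and 34288 against 22220 CPM in Control, and Gzmb, with 5318 against 3082 and 5187 against 3789 CPM. Il2rb had 756.5 against 474.7 CPM and 778.0 against 511.6 CPM, Klrh1 306.9 against 156.3 and 306.6 against 134.6 CPM, and Gadd45g, a stress-induced gene, 167.2 against 62.2 and 186.2 against 76.9 CPM. By the smaller of the 2 libraries' ratios Tsga10 led, at 3.27 and 4.44, on 8 SAP and 5 Control UMIs in Fcer1g-only cells. Ikzf2 had about the same level in both, with 1593 against 1614 CPM and 1706 against 1712 CPM. Fcer1g-only cells were shallower, and the part of depth in these values was not tested.

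**Figure D4:**
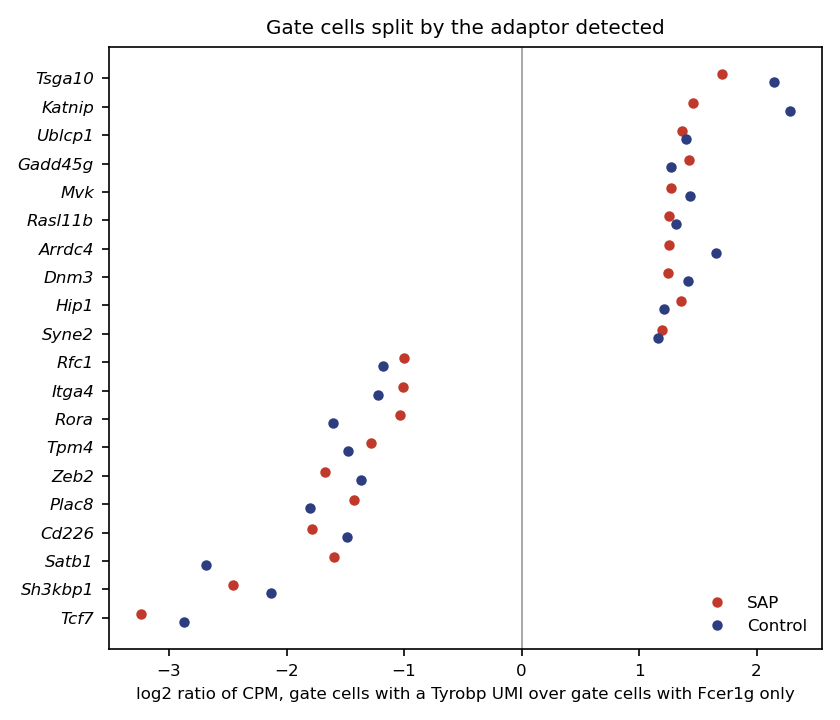
Log2 ratio of CPM, gate cells with a Tyrobp UMI over gate cells with Fcer1g only, for the 10 highest and 10 lowest genes, with 1 point per library (SAP red, Control blue). Tcf7 lies lowest in both libraries, at 6.98 against 65.9 CPM in SAP and 12.1 against 88.5 CPM in Control.

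Split by Ly49, gate cells with any Ly49 UMI (276 and 302, median depth 4323.5 and 3843.5 UMIs) differed little from those without (467 and 581, median 3789 and 3528 UMIs). Of 5373 genes 9 (0.168%) were at least 1.5-fold higher in both libraries and 14 (0.261%) lower. Klre1, a neighbour of the Ly49 genes, had 307.8 CPM in Ly49 cells against 148.5 in the rest of the SAP gate and 307.5 against 163.1 CPM in Control. Xcl1 had 314.2 against 183.7 CPM and 276.3 against 193.9 CPM, ratios of 1.71 and 1.42. Pecam1, for the adhesion molecule CD31, had 16.7 against 32.9 CPM and 9.02 against 20.4 CPM. Gzma stood at ratios of 1.01 and 1.04 and Klrd1 at 0.849 and 0.815.

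SAP was then set against Control within the gate, a contrast the rule did not use. Of 5622 genes with at least 20 CPM in either library and 50 UMIs, 88 (1.57%) were at least 1.5-fold higher in SAP and 21 (0.374%) at least 1.5-fold lower. Under other scalings the split was 59 and 35 (TMM factors) or 58 and 40 (median-of-ratios factors). Ratios within 1.2-fold made up 79.9% of the genes. Among the 1531 genes with at least 100 CPM, 2 (0.131%) were 1.5-fold higher and 0 lower, and in the other kept barcodes 7 of 5276 genes (0.133%) were higher and 4 (0.0758%) lower. The larger ratios in the gate therefore lay among genes with few counts.

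The 2 abundant genes at 1.5-fold had ratios of about the same size outside the gate. The mitochondrial ribosomal RNA mt-Rnr1 had 2977 CPM in SAP and 1845 CPM in Control gate cells, a ratio of 1.61, against 1.52 in the other barcodes. Mir6236, which overlaps ribosomal RNA sequence, had 381.2 and 246.1 CPM, a ratio of 1.55 (1.42 to 1.70) against 1.47 in the others. Among abundant genes lower in SAP, Lpxn, for the adhesion adaptor leupaxin, had 154.1 CPM in SAP and 229.2 in Control gate cells, a ratio of 0.672 (0.598 to 0.755) against 0.841 in the others. Clec2d, a ligand of NKR-P1 receptors, had 234.8 and 320.0 CPM, a ratio of 0.734 against 0.749. Ifng had 89.8 CPM in SAP and 117 CPM in Control gate cells, a ratio of 0.768 (0.656 to 0.898) against 0.963 in the others. Srsf1, a splicing factor gene, had 111.6 and 145.4 CPM, 0.768 against 0.994.

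Of the genes given in this paragraph, all but Klra7 stood within 1.2-fold between the gate cells of the 2 libraries. Klra5 had 169 CPM in SAP and 175 in Control gate cells, a ratio of 0.968 (0.858 to 1.09). Klra7 had 117 and 94.3 CPM, a ratio of 1.24 (1.06 to 1.44), and 1.29 in the others. Gzma stood at 0.995, Gzmb at 0.993 and Ccl5 at 0.887, against 0.916 in the others. Among the gate's own genes Cd8a stood at 1.10, Trac at 0.999, Tyrobp at 0.961 and Fcer1g at 0.951.

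By the naming rule the highest ratio was that of Lgals1, for the secreted lectin galectin-1, with 36.7 CPM in SAP and 14.7 CPM in Control gate cells, a ratio of 2.49 (1.77 to 3.56). It rested on 114 UMIs in 23 SAP cells, 35 of them in 1 cell, and on 49 UMIs in 28 Control cells. Without the cell with the most UMIs in each library the ratio was 1.92 (1.31 to 2.85), and without the deepest 1% of barcodes its log2 value was −0.10, on the other side of 0. In the other barcodes the ratio was 0.842. Mrpl16, for a mitochondrial ribosomal protein, had 22.2 and 10.8 CPM (2.05, 1.35 to 3.16), Zfp407 26.1 and 13.2 CPM, Rab5b, for an endosome GTPase, 27.99 and 14.4 CPM, Ftsj3 31.2 and 16.8 CPM and Lsmem1 39.9 and 21.9 CPM. The rest of the 12 highest, Zhx1, Top3b, Ccdc43, Asb3, Shld1 and Slc9a8, had ratios between 1.85 and 1.94.

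At the lower end, the pseudogene Olfr1369-ps1 had 10.3 CPM in SAP and 32.5 CPM in Control gate cells, 32 UMIs in 12 cells and 108 in 17, a ratio of 0.317 (0.207 to 0.475) and 0.619 in the others. Cdh13, for a cadherin, had 26.4 and 43.6 CPM, and Pop4 31.9 and 53.2 CPM. Map3k7, for the kinase TAK1 of inflammatory signalling, had 19.3 and 31.6 CPM, a ratio of 0.612 against 1.15 in the others. Snhg9 had 32.8 and 52.3 CPM (0.628, others 0.723), Rab27a, for a granule transport GTPase, 14.8 and 22.8 CPM, and Psmd6, of the proteasome, 30.9 and 47.2 CPM. Impa2, Ccdc115, Vat1 and Zgrf1 had ratios between 0.575 and 0.654.

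**Figure D5:**
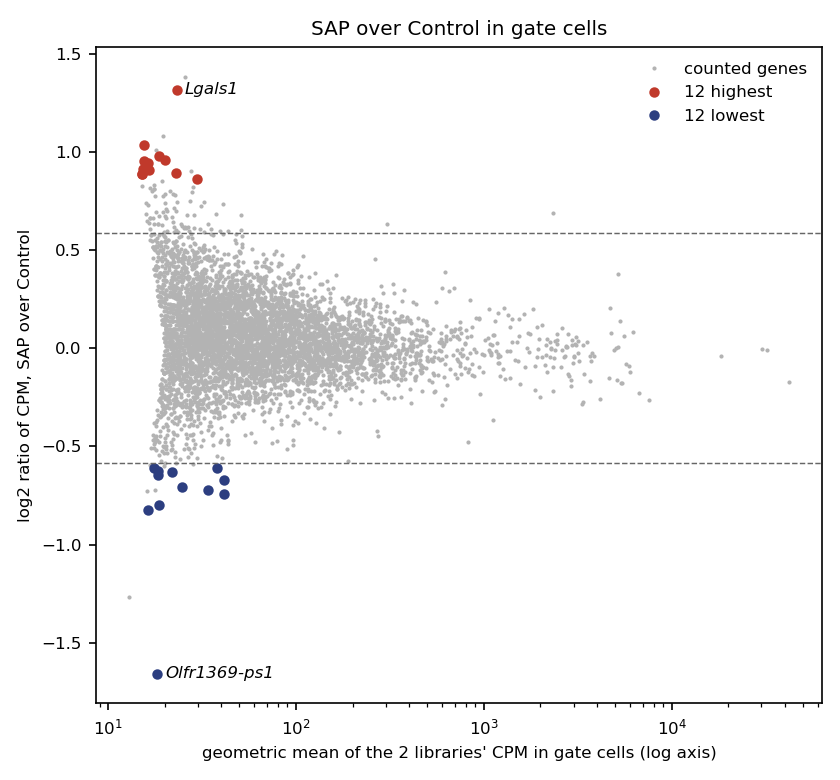
Log2 ratio of CPM, SAP over Control in gate cells, against the geometric mean of the libraries' CPM (log axis) for 5622 genes without those of the rule, with dashed lines at 1.5-fold and the 12 highest (red) and 12 lowest (blue) named genes. The spread narrows as the level rises, grey points farther out are genes the naming rule leaves out, and the named genes lie at the low end, from Lgals1 at a ratio of 2.49 to Olfr1369-ps1 at 0.317.

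By list, 1.2-fold was the size used, at which 812 (14.4%) of 5622 genes were higher in SAP and 317 (5.64%) lower, with a median ratio of 1.03. For the protein-coding genes of the mitochondrial genome, a list without its ribosomal RNAs, the median ratio was 1.18 with 5 of 11 higher and 1 lower. They ran from mt-Atp6 at 1.41 to mt-Atp8 at 0.778, both ATP synthase subunit genes, which overlap on the genome, so that their counts are uncertain. The complex I gene mt-Nd4 stood at 1.31. In the other barcodes these 3 genes stood at 1.17, 0.788 and 1.26. Cholesterol synthesis genes had a median of 1.12 with 4 of 18 higher (Pmvk 1.41, Lss 1.30, Sqle 1.24 and Idi1 1.24) and 0 lower. Immediate early genes had a median of 1.08 with 3 of 17 higher (Fosb 1.25, Fos 1.24 and Dusp1 1.23) and 0 lower, which is near the background share. The natural intraepithelial list had 1 of 26 higher and 1 lower, the granule list 1 and 1 of 15 and the Ly49 list 1 and 1 of 4.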

How the data were processed

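The authors deposited raw counts, whole numbers of UMIs per gene and barcode, as 1 matrix for SAP and 1 for Control. Per the file headers, Cell Ranger 7.1.0 produced them. Cell Ranger, Seurat and mm10 appear in the submitters' processing notes. The annotation's version and any filtering before deposit are not given in the sources used. The files hold 5203 SAP and 5737 Control barcodes with 19144320 and 19142384 UMIs, and 55357 gene identifiers.

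Barcodes were filtered and gated as the report gives. The mitochondrial limit removed 163 SAP and 63 Control barcodes, the gene minimum 34 and 22 and the Rps19-ps6 limit 63 and 31. UMIs were summed per library and cell group and scaled to CPM, computed here. Ratios have exact conditional binomial 95% intervals, shares exact Clopper-Pearson intervals, and both cover counting error only. Genes entered gate-over-others comparisons with 20 CPM in either cell group and 50 UMIs, in each library, without the 8 genes of the rule. A gene was counted when past the fold in both libraries. For SAP over Control, 20 CPM in either library and 50 UMIs in total were asked for. Named genes were the 15 highest and 15 lowest by the smaller log2 ratio of the 2 libraries, and the 12 highest and 12 lowest SAP-over-Control ratios whose interval excludes 1, without mitochondrial, ribosomal protein, Gm-numbered, Rik, histone and receptor segment genes. Also followed were, in 29 gene lists, members at least 2-fold apart and the highest and lowest of each. Some named genes are not reported here. Other genes given with values were chosen after their values were seen. Members and lists were chosen with earlier results of these data known. Of the fucosylation list 16 of 18 symbols and of the gamma-delta program list 9 of 11 were in the files.

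No test was run, since each group is 1 library. The ratio and interval steps were tested on simulated counts drawn independently, without the clumping of UMIs within cells. Thinning was checked on some of the real SAP barcodes, for the total it leaves. Scrublet's own threshold marked 0 barcodes in either library, so it did not work; as an alternative the top scores, 207 of 4965 SAP and 259 of 5634 Control barcodes at an expected 0.8% per 1000, were left out, among them 27 and 37 gate cells. Other alternatives changed the filters, gate, scaling (edgeR's TMM, DESeq2's median-of-ratios) and CPM minimum. Upstream sequences came from RefSeq's GRCm38.p6 and gene positions from GENCODE M21 of the same build. Analyses used Python 3.11.15 with numpy 2.4.6, scipy 1.17.1, pandas 2.3.3 and scanpy 1.11.5, and R 4.3.3 with edgeR 4.0.16 and DESeq2 1.42.0.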

Additional observations from a re-analysis of the deposited data

Results flagged for a closer look

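For each of these genes the direction differed between 2 cell groups or 2 libraries and both counting intervals excluded 1. With 1 library per group the differences were not tested, and no interval was widened for the many genes examined.

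In 8 genes SAP over Control lay on opposite sides of 1 inside the gate and in the other kept barcodes. Lgals1 had a ratio of 2.49 (1.77 to 3.56) in gate cells and 0.842 (0.774 to 0.916) in the others, and 35 of its 114 SAP gate UMIs came from 1 cell. Klrd1, the CD94 gene and the most abundant of the 8, had 1.15 (1.10 to 1.203) and 0.958 (0.933 to 0.984). Klra1, for Ly49A, had 0.682 (0.482 to 0.959) and 1.58 (1.10 to 2.27), from 58 SAP and 91 Control UMIs in the gate. Those UMIs lay in 3.90% of SAP and 3.51% of Control gate cells, so the share of cells with Klra1 was not lower in SAP. UMIs of a gene within 1 cell are not independent, which the counting intervals leave out. Pmvk, of cholesterol synthesis, had 1.41 (1.09 to 1.83) and 0.878 (0.772 to 0.997). The interferon-induced gene Bst2 had 1.35 (1.04 to 1.76) and 0.883 (0.793 to 0.984), and Nfkbiz, an NF-kB cofactor gene, 1.18 (1.004 to 1.38) and 0.927 (0.871 to 0.988). Gata3, a T cell transcription factor gene, had 0.792 (0.650 to 0.963) and 1.13 (1.02 to 1.25), and Ccdc115 0.640 (0.434 to 0.934) and 1.21 (1.01 to 1.45).

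In 3 genes gate cells lay above the other barcodes in 1 library and below them in the other. Igha, the heavy chain gene of IgA, had a ratio of 2.12 (1.69 to 2.64) in SAP and 0.309 (0.259 to 0.366) in Control. Its level was 38.9 CPM in SAP and 42.7 CPM in Control gate cells, and 18.4 CPM in SAP and 138 CPM in Control other barcodes, where the light chain gene Igkc stood at 6.31 and 1069 CPM. Map3k7 had 0.685 (0.514 to 0.901) in SAP and 1.29 (1.03 to 1.60) in Control. Psmd6 had 0.802 (0.639 to 0.998) in SAP and 1.23 (1.03 to 1.47) in Control.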

How the results depend on the processing

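No paired analysis was possible because each group is 1 library, and leaving out a library leaves no comparison between SAP and Control. The gate's share, 14.96% in SAP and 15.7% in Control, became 16.2% and 16.8% with at least 1000 UMIs per barcode, 16.0% in SAP with at most 5% mitochondrial UMIs, 8.14% and 7.31% with counts thinned to 1000 UMIs (a ratio of 1.12 in place of 0.955), and 9.47% and 10.2% when the gate also asked for no UMI of Trdv4, Trgv7 or Trgc1. Thinned, the gate differed at 2-fold in 19 higher genes in place of 29, and without those gamma-delta UMIs in 18. With no CPM minimum 60 genes were higher and 182 lower in place of 50, with a 50 CPM minimum 14 and 29, with 100 CPM 4 and 11, and 44 were higher in the SAP library alone. For SAP over Control, the 88 higher and 21 lower genes became 221 and 130 in the thinned gate, 199 and 71 without gamma-delta UMIs, 280 and 100 with no CPM minimum, 6 and 2 at 50 CPM and 2 and 0 at 100 CPM. The lower count was also 115 without the Rps19-ps6 criterion, 35 with TMM factors and 38 with a mean of per-cell CPM, and median-of-ratios factors gave 58 and 40. Fewer cells or a lower minimum admit noisier ratios by construction. For the rest the cause was not tested. In all, 1698 alternative values were computed. Of those for the named genes, the Lgals1 log2 ratio of SAP over Control was the only reversal, at −0.10 without the deepest 1% of barcodes. Shares, their ratio and counts were not labelled for reversal. List medians were so labelled only where the main median reached 1.5-fold (gate over others) or 1.2-fold (SAP over Control). The ratio of the gate shares did cross 1 when thinned, from 0.955 to 1.12. For the named genes, 413 of 506 gate-over-others values moved by less than the SD of the 2 libraries. Of the SAP-over-Control values 351 of 360 stayed within the counting interval. Both counts include alternatives whose outcome was fixed in advance. A changed CPM minimum leaves the ratio of a named gene as it is. For gate over others, 1 library alone always lies within the SD of the 2 libraries. These counts therefore overstate how stable the named genes were. For the gene lists, 171 of 407 gate-over-others medians moved by more than that SD and 3 of 332 SAP-over-Control medians moved, and of the shares, the ratio and the counts over all genes 32 of 93 moved. Il17a gave no log2 value under 3 alternatives, and BE692007 under 1, where a gate held 0 UMIs. The 100 CPM minimum and leaving out the cell with the most UMIs of a gene were chosen after seeing the data. Depth limits every absence: 0 UMIs in the gate allows up to 0.965 CPM in SAP and 0.901 CPM in Control.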

Other observations

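Receptor segments are read only where a transcript's 3' fragment reaches them, so counts were low and are given as values. Beta variable segments held 177 UMIs in SAP and 208 in Control gate cells. Trbv16 took 30 (16.9%) and 27 (13.0%) of them, against 4.46% and 6.02% of the 493 and 482 UMIs in the other kept barcodes. Trbv13-1 took 20 (11.3%) and 40 (19.2%), against 5.88% and 4.98%. Trbv12-2 took 9.04% and 11.1%, against 12.4% and 12.03%. The alpha segment Trav12-1 had 6 SAP and 11 Control UMIs of 164 and 210 in the gate, in 5 and 8 cells, against 0 and 5 of 748 and 876 in the others. UMIs of a segment within 1 cell are not independent, related segments can share reads, and segments were picked after their values were seen.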
